A study of Mus musculus with 15 samples.

Results

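The stress keratins *Krt6a*, *Krt6b*, *Krt16* and *Krt17* were followed in skin of mice that lack OTULIN in the epidermis. The 4 genes were taken by symbol from a count table of 55487 genes, with no filter on low counts, and all 4 had counts in every library. The table holds 15 skin libraries of 3-week-old C57BL/6 mice, 5 labelled WT, 5 labelled OTULIN-KO and non-lesional, and 5 labelled OTULIN-KO and lesional. Both OTULIN-KO groups carried floxed *Otulin* alleles with Cre driven by the keratin 14 promoter, so that the deletion falls on keratinocytes, and the WT mice carried the floxed alleles without Cre. Lesions in these mice are local, and how much lesional tissue each library labelled lesional holds is not given. The sources used here also do not say whether a lesional and a non-lesional sample came from the same mouse. Mice of both sexes were used without separation by sex. The libraries are of whole skin, in which fewer cells of a type and less RNA per cell cannot be told apart.

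Keratins are the intermediate filament proteins of epithelia, and each filament is built from a type II keratin joined to a type I keratin. *Krt6a* and *Krt6b* encode type II keratins, and *Krt16* and *Krt17* encode type I keratins that assemble with them. In healthy hairy skin these keratins are found mainly in the hair follicle, in the companion layer and the outer root sheath, while the epidermis between the follicles uses Krt5 with Krt14 and, above the basal layer, Krt1 with Krt10. After wounding, and in inflamed or hyperplastic epidermis such as psoriasis, keratinocytes between the follicles switch on the stress keratins, for which they are widely used as markers of activated epidermis.

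The 4 genes lie in both keratin clusters of the mouse genome, given here on GRCm38 and all on the minus strand. *Krt6b* (chr15:101676023-101680287) and *Krt6a* (chr15:101689910-101694307) are neighbours in the type II cluster, 9622 bases apart, each with 9 exons. *Krt16* (chr11:100246091-100248902) and *Krt17* (chr11:100256217-100261029) are neighbours in the type I cluster, 7314 bases apart, each with 8 exons. The last 30 coding bases of each are shown to display the likeness between neighbours. The libraries read the 3′ ends of transcripts, so likeness there bears on how well counts are separated. The stop codon is in capitals, and the sequences are from the GENCODE M21 transcripts.
Krt6a: tcctccagcaagaagagctacaggcagTGA
Krt6b: tcctccagcaggaagagctacaggcacTGA
Krt16: cagagccaaagtcagagttccagggacTAA
Krt17: cgggaacaggtgcaccagaccacccgtTAA
In this stretch *Krt6a* and *Krt6b* differ at 2 bases and *Krt16* and *Krt17* at 18.

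Over the whole coding sequence *Krt6a* and *Krt6b* were 97.6% identical, against 73.0% for *Krt16* and *Krt17*. In the last 500 bases of the transcripts, where reads of a 3′ library fall, the identity of *Krt6a* with *Krt6b* was 70.4%. No stretch of 35 bases, the shortest read that was kept, was common to *Krt6a* and *Krt6b* in those last 500 bases, although they share 1077 such stretches over the whole transcripts. *Krt16* had 28.8% of its 35-base stretches there in common with another gene, mostly *Gm11597*, which had a count of 0 in every library. *Krt17* had 15.7% in common with another gene, all of them shared with *Krt14*. The counts of *Krt16* and *Krt17* are to that extent less certain than those of *Krt6a* and *Krt6b*. *Gm49428*, which overlaps *Krt6a* on the other strand, had at most 45 counts in a library. No strand option is among the stated counting parameters, and without one featureCounts counts reads of either strand, so reads of the 2 genes cannot be told apart where they overlap.

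Library totals ran from 1962604 to 2567138 counts. Levels are given as CPM, the count in relation to the library total, with totals scaled by the trimmed mean of M-values (TMM) method. Each read marks the end of 1 transcript, so a CPM here does not grow with transcript length. The keratinocyte markers *Krt5*, *Krt14*, *Krt1* and *Krt10* were present in all libraries, at a summed level of 4047 to 12311 CPM, and of 3 genes that skin should lack *Ins2* and *Umod* were at 0 throughout and *Alb* ran from 0 to 15.3 CPM. *Otulin* itself ran from 12.3 to 28.2 CPM in WT, 21.3 to 30.6 CPM in non-lesional and 18.8 to 27.2 CPM in lesional skin, so its level in whole skin did not separate the genotypes. The labels name no mouse for a sample. The profiles are described as those of 5 mice a group, and it is not stated whether 1 mouse could give both a lesional and a non-lesional sample.

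All 4 stress keratins were far above the WT range in lesional replicates 2 and 11, and in no other lesional library. The other 3 libraries labelled lesional, replicates 5, 8 and 14, lay within or below the WT range for *Krt6a*, *Krt6b*, *Krt16* and *Krt17*, and the labels do not tell how much lesional tissue they held. Between the groups as a whole, the 4 genes therefore overlapped in each comparison.

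*Krt6a*, the type II keratin of the companion layer and outer root sheath, was at 1189, 474, 409, 261 and 381 CPM in WT replicates 1, 4, 7, 10 and 13. It was at 637, 344, 290.4, 305 and 345 CPM in non-lesional replicates 3, 6, 9, 12 and 15. In lesional replicates 2, 5, 8, 11 and 14 it was at 4964, 322, 229, 15497 and 392 CPM. Lesional replicates 2 and 11 thus stood 12.1 and 37.8 times above the WT median, while lesional replicate 8 was below every WT library. WT replicate 1 was the highest of the remaining libraries.

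*Krt6b*, the neighbour and close copy of *Krt6a*, was hardly detected in most libraries. WT replicates 1, 4, 7, 10 and 13 held 17.1, 1.75, 3.13, 1.27 and 1.87 CPM, which is 3 to 44 counts. Non-lesional replicates 3, 6, 9, 12 and 15 held 219.6, 0.853, 2.05, 1.996 and 10.1 CPM. Lesional replicates 2, 5, 8, 11 and 14 held 3525, 2.54, 1.20, 8782 and 4.87 CPM. Its range was the widest of the 4 genes, from 2 counts in non-lesional replicate 6 to 17417 counts in lesional replicate 11. Non-lesional replicate 3 stood apart from the other non-lesional libraries with 495 counts against 2 to 23.

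*Krt16*, the type I partner that is often read together with *Krt6* genes as a marker of hyperproliferative epidermis, was at 91.1, 8.31, 12.1, 12.3 and 14.2 CPM in WT replicates 1, 4, 7, 10 and 13. It was at 97.6, 4.26, 19.3, 10.8 and 17.1 CPM in non-lesional replicates 3, 6, 9, 12 and 15. It was at 899, 7.11, 12.4, 2888 and 22.4 CPM in lesional replicates 2, 5, 8, 11 and 14. Lesional replicates 2 and 11 were 73.3 and 235 times the WT median, and WT replicate 1 and non-lesional replicate 3 were at like levels to each other, well above the rest of their groups.

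*Krt17*, a type I keratin of follicles and other epithelial appendages, varied least. WT replicates 1, 4, 7, 10 and 13 gave 894, 435, 661, 383 and 553 CPM. Non-lesional replicates 3, 6, 9, 12 and 15 gave 689, 403, 563, 551 and 419 CPM. Lesional replicates 2, 5, 8, 11 and 14 gave 3471.5, 389, 546, 4876 and 549.8 CPM. The 2 high lesional libraries were 6.28 and 8.82 times the WT median, and the other 13 libraries lay between 383 and 894 CPM.

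**Figure D1:**
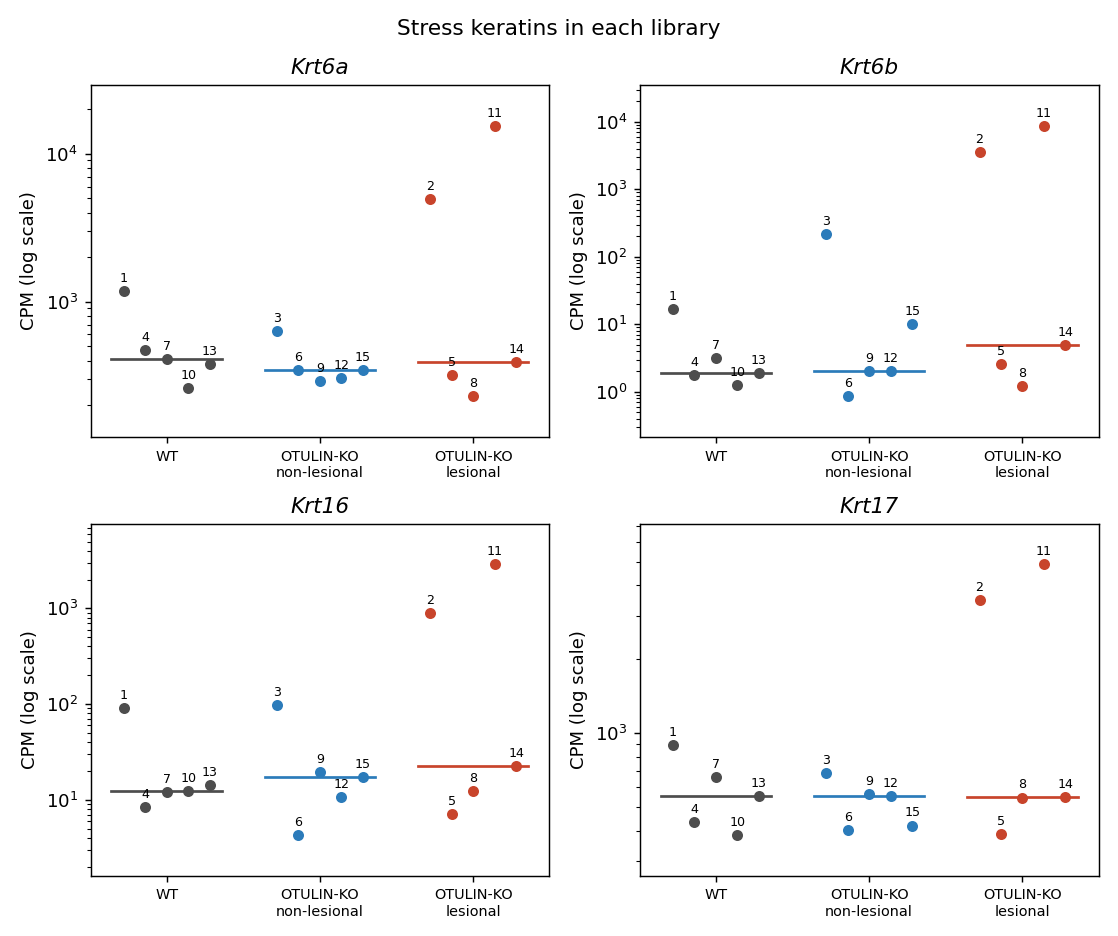
CPM of each stress keratin on a log axis in the 5 libraries of each group. Points are libraries, numbered by replicate, and horizontal lines are group medians. Lesional replicates 2 and 11 sit above all other libraries in all 4 panels, and the other 3 lesional libraries sit within or below the WT range.

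The order of the groups depended on whether the mean or the median was taken. By the mean, the lesional group was highest for each of the 4 genes, for example 4281 ± 6586 CPM (SD, n = 5) for *Krt6a* against 543 ± 369 in WT and 384 ± 143 in non-lesional skin. By the median, *Krt6a* ran 409, 392 and 344 CPM in WT, lesional and non-lesional skin, and *Krt17* ran 553, 551 and 549.8 CPM in WT, non-lesional and lesional skin. The medians of *Krt6b* were 4.87, 2.05 and 1.87 CPM and those of *Krt16* 22.4, 17.1 and 12.3 CPM in lesional, non-lesional and WT skin. No neighbouring groups in these orders differed beyond the spread of their libraries.

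Lesional skin was compared with WT skin to ask how the stress keratins stand in the inflamed areas. The fitted log2 fold changes were 8.90 for *Krt6b*, 4.78 for *Krt16*, 2.98 for *Krt6a* and 1.75 for *Krt17*, with standard errors of 2.82, 1.88, 1.30 and 0.80. In edgeR's quasi-likelihood test over 27027 genes the unadjusted p was 0.0131 for *Krt6b* and 0.0337 for *Krt16*, and 0.051 for *Krt6a* and 0.0587 for *Krt17*. The Benjamini-Hochberg adjusted p was 0.721 for each, so none of the 4 passed. In the same edgeR fit 0 genes of 27027 (percent called 0) passed the adjusted threshold of 0.05, while 1292 genes had a p under 0.05 before adjustment. With DESeq2's Wald test 14 genes passed, *Krt6b* among them with an adjusted p of 0.00128, and none of the other 3 stress keratins.

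A looser rule asks for an unadjusted p of at most 0.05 with a log2 fold change of at least 1. With edgeR's p, *Krt6b* and *Krt16* were higher by this rule, 2 of 4, against 1.96% of all genes tested. With the p of DESeq2, the tool the study used, 4 of 4 were higher, against 1.33% of 26979 genes, with p from 3.88e-07 for *Krt6b* to 0.0145 for *Krt17*. None of the 4 had groups without overlap, against 0.533% of all genes. The exact permutation test of mean log2 CPM, two-sided over 252 regroupings of the 10 libraries and with a smallest possible p of 0.00794, gave 0.397 for *Krt6a*, 0.246 for *Krt6b*, 0.286 for *Krt16* and 0.317 for *Krt17*. For each gene, 2 of 5 lesional libraries exceeded the highest WT library. Without lesional replicates 2 and 11, a setting chosen after seeing the data, the log2 fold changes turned to -0.80 for *Krt6a*, -0.85 for *Krt6b*, -1.002 for *Krt16* and -0.25 for *Krt17*. When limma's voomWithQualityWeights weighted the libraries by their spread, they were 0.88 for *Krt6a*, 3.22 for *Krt6b*, 1.73 for *Krt16* and 0.79 for *Krt17*. Without lesional replicate 11 alone they were 1.44, 7.41, 3.07 and 1.08 in the same order, and without WT replicate 1 alone 3.50, 10.2, 6.02 and 1.96.

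Lesional skin was also compared with the unaffected skin of the same genotype. The log2 fold changes were 3.47 for *Krt6a*, 5.71 for *Krt6b*, 4.68 for *Krt16* and 1.90 for *Krt17*, with standard errors of 1.28, 2.76, 1.88 and 0.78. The unadjusted p in edgeR was 0.0262 for *Krt6a*, 0.0714 for *Krt6b*, 0.0373 for *Krt16* and 0.0398 for *Krt17*, and the adjusted p was 0.730 for each. At the adjusted threshold 0 of 27316 genes passed (percent called 0) in edgeR and 0 in DESeq2, with 1226 genes at an unadjusted p under 0.05. *Krt6a*, *Krt16* and *Krt17* met the looser rule with edgeR's p, 3 of 4, against 1.54% of all genes. With DESeq2's p all 4 met it, against 1.03%. None of the 4 was without overlap, against 0.458%, and the exact permutation p ran from 0.278 to 0.341. Without lesional replicates 2 and 11 the values were -0.29 for *Krt6a*, -4.03 for *Krt6b*, -1.08 for *Krt16* and -0.085 for *Krt17*, where the value of *Krt6b* carries the 495 counts of non-lesional replicate 3. Without non-lesional replicate 3 alone they were 3.74 for *Krt6a*, 9.37 for *Krt6b*, 5.90 for *Krt16* and 2.03 for *Krt17*, and without lesional replicate 11 alone 1.94, 4.24, 2.99 and 1.24. With voomWithQualityWeights they were 1.21, 2.52, 1.83 and 0.91. With a replicate block on sets of 3 neighbouring sample numbers, added after seeing the data, all 4 passed in the unfiltered edgeR fits. In those fits a gene's own spread had no weight. None of the 4 passed with filterByExpr, DESeq2, voom or voomWithQualityWeights. Both lesional comparisons use the same lesional libraries and are not independent of each other.

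Non-lesional skin was compared with WT skin to ask about skin that lacks OTULIN in keratinocytes but shows no lesion. The log2 fold changes were -0.50 for *Krt6a*, 3.16 for *Krt6b*, 0.08 for *Krt16* and -0.16 for *Krt17*, with standard errors of 0.44, 1.69, 0.999 and 0.26. The adjusted p in edgeR ran from 0.747 to 0.999, and 0 of 4 passed either rule, against 0.066% of 27255 genes by adjusted p (18 genes) and 1.24% by the looser rule for higher genes. With DESeq2's p 0 of the 3 that had one met the looser rule, against 0.279%. None of the 4 was without overlap, against 0.429%, and the exact permutation p ran from 0.484 to 1. *Krt6b* depended on 1 library. Without non-lesional replicate 3 its log2 fold change was -0.46. With all libraries of the comparison DESeq2 gave *Krt6b* no p, and which count led to that was not tested. With edgeR's spread estimated without robust weighting *Krt6b* passed, at an adjusted p of 0.000315, among 69 genes. The call also changed with a replicate block on sets of 3 neighbouring sample numbers, which the labels do not describe as sets and which was added after seeing the data. With this block *Krt6a*, lower in non-lesional skin, passed in edgeR (adjusted p = 0.00906), *Krt6b* passed in voom (adjusted p = 0.0151) and voomWithQualityWeights (adjusted p = 0.0412), both passed in edgeR without robust estimation, and neither passed in DESeq2. In edgeR with filterByExpr *Krt6a* did not pass and *Krt6b* was filtered out. The edgeR fit that called *Krt6a* used a spread estimate (quasi-dispersion) of 0.426 where the gene's own was 2.21. Its own spread thus had little weight in that call.

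**Figure D2:**
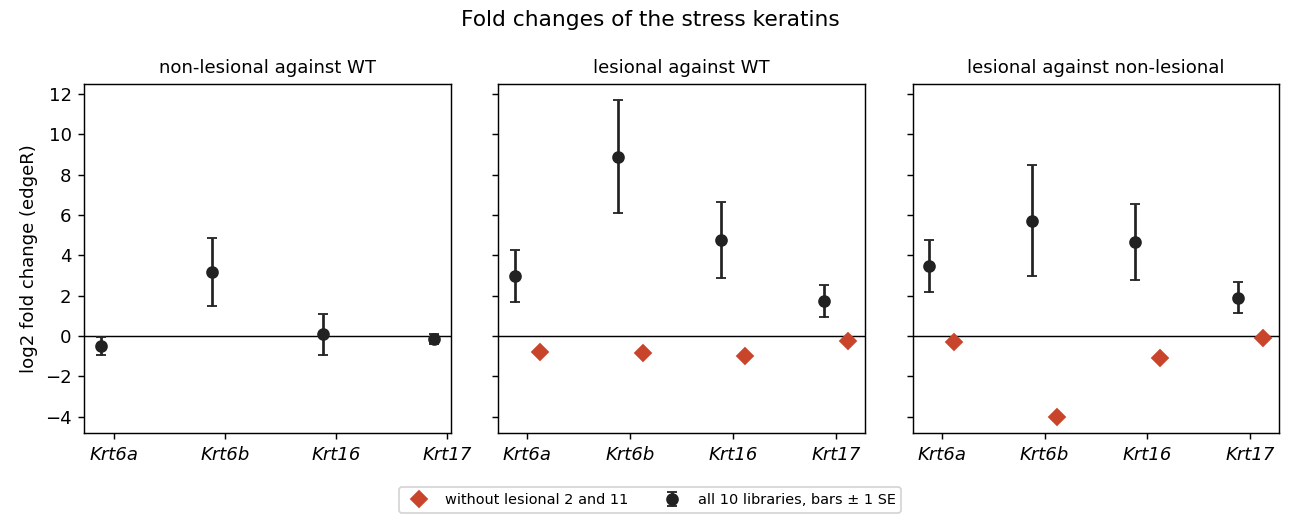
log2 fold changes of the 4 stress keratins in the 3 comparisons from edgeR. Black points are fits on all 10 libraries with bars of 1 standard error, and red diamonds are fits without lesional replicates 2 and 11. In both lesional comparisons all black points are above 0 and all red diamonds are below 0.

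The stress keratins were also set against the counts of all keratin genes in the same library, a share in which follicle and epidermis keratins both enter. In WT replicates 1, 4, 7, 10 and 13 the 4 genes made up 13.99%, 8.01%, 7.60%, 4.45% and 5.83% of the counts of all keratin genes. In non-lesional replicates 3, 6, 9, 12 and 15 the share was 11.6%, 5.65%, 5.93%, 5.41% and 5.35%. In lesional replicates 2, 5, 8, 11 and 14 it was 49.0% (95% Wilson interval 48.5% to 49.4%), 5.54%, 5.89%, 67.8% (67.5% to 68.1%) and 8.76%. These intervals cover counting error only, and copies made by PCR are not independent molecules. In lesional replicate 11 the 4 genes alone took 3.09% of all counts of the library, and in lesional replicate 2 they took 1.29%, against 0.0656% to 0.226% in WT.

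The log2 share was higher by 1.09 in lesional than in WT libraries (exact permutation p = 0.278), and 2 of 5 lesional libraries exceeded the highest WT share. It was higher by 1.28 in lesional than in non-lesional libraries (exact permutation p = 0.206). Non-lesional and WT libraries differed by -0.19 (exact permutation p = 0.563). Without lesional replicates 2 and 11 the share was lower in lesional than in WT libraries, by -0.17 on the log2 scale. The group difference was thus smaller than the spread within the lesional group.

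**Figure D3:**
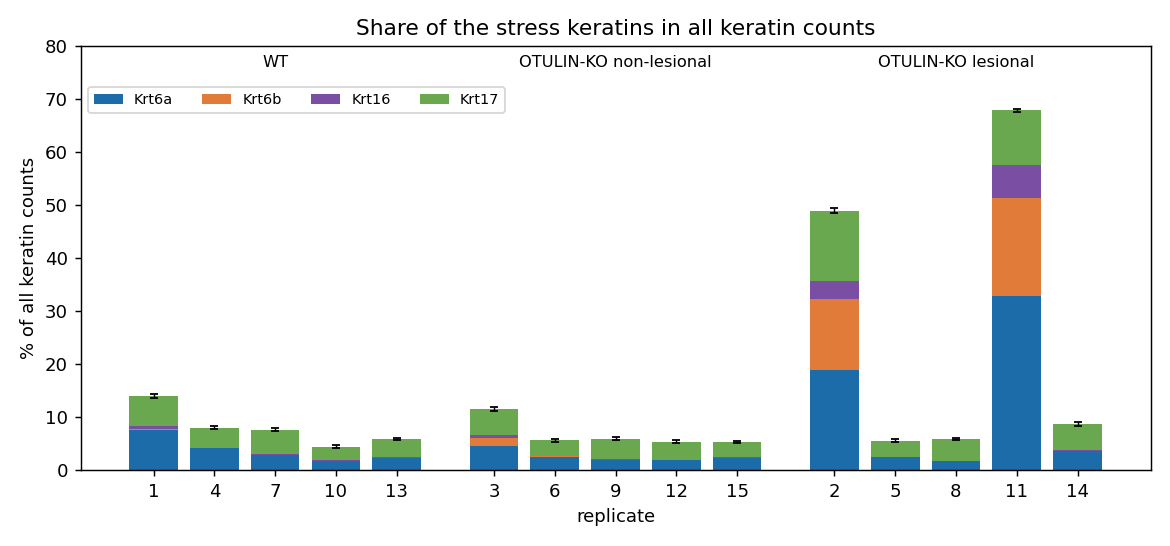
Share of each stress keratin in the counts of all keratin genes, in percent, stacked by gene for each library. The height of a bar is the summed share of the 4 genes and its error bar is the 95% Wilson interval. The bars of lesional replicates 2 and 11 reach 49.0% and 67.8%, and the highest of the others is WT replicate 1 at 13.99%.

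The mix of the 4 genes differed between libraries. *Krt6b* was 27.4% of the 4 genes' counts in lesional replicate 2 and 27.4% in lesional replicate 11, against 0.190% to 0.779% in WT and 13.4% in non-lesional replicate 3. *Krt17* was 27.0% and 15.2% of these counts in the 2 high lesional libraries, against 40.8% to 60.9% in WT. The ratio of type II to type I among all 4 genes was 1.94 and 3.13 in lesional replicates 2 and 11, against 0.613 to 1.22 in WT.

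Within a library, *Krt6b* had 71.0% as many counts as *Krt6a* in lesional replicate 2 and 56.7% in lesional replicate 11. In WT the ratio ran from 0.369% to 1.44%, and in non-lesional replicate 3 it was 34.5%. The ratio of *Krt16* to *Krt17* was 25.9% and 59.2% in lesional replicates 2 and 11, 14.2% in non-lesional replicate 3 and 10.2% in WT replicate 1, against 1.83% to 3.20% in the other WT libraries. WT replicate 1 thus had a raised ratio of *Krt16* to *Krt17*, while its ratio of *Krt6b* to *Krt6a*, 1.44%, was well below the 34.5% of non-lesional replicate 3. Of the 18 tests on the 6 ratios in 3 comparisons, none reached an unadjusted p under 0.05, and the smallest was 0.0714 for *Krt6b* to *Krt6a* between lesional and WT libraries (exact permutation test, log2 difference 2.73). Without WT replicate 1 that p was 0.0317, and without lesional replicate 8 it was 0.0476 (exact permutation test).

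**Figure D4:**
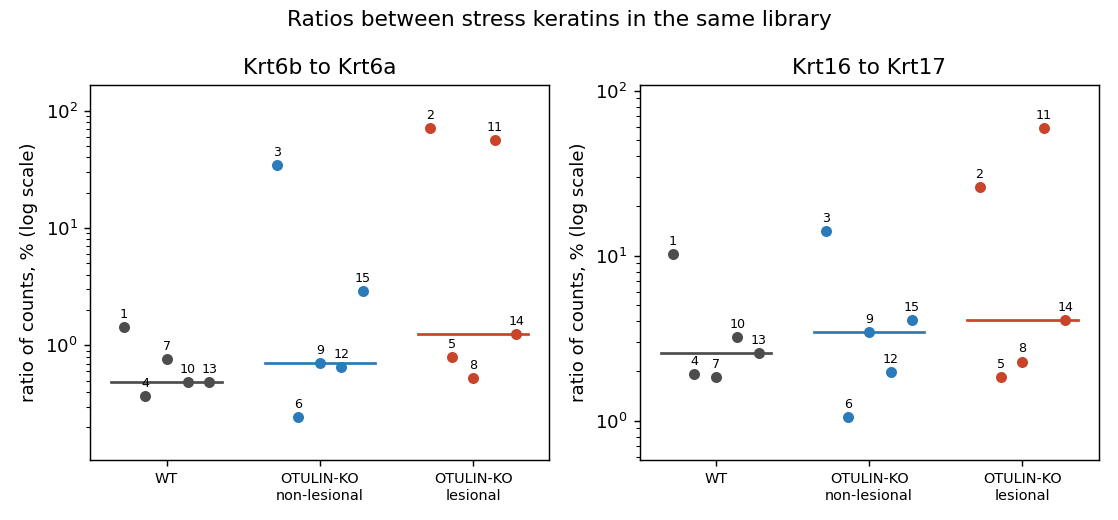
Ratio of counts in percent on a log axis for Krt6b to Krt6a (left) and Krt16 to Krt17 (right), each point a library numbered by replicate and each line a group median. In the left panel lesional replicates 2 and 11 and non-lesional replicate 3 stand apart, and in the right panel WT replicate 1 is raised too, at 10.2%.

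Few genes of the table varied as much among lesional libraries. Among 14171 genes with at least 100 counts in all, the SD of log2 CPM over the 5 lesional libraries was 5.88 for *Krt6b*, the highest of all these genes. The ranks of *Krt16*, *Krt6a* and *Krt17* were 14, 47 and 147, with SDs of 3.86, 2.72 and 1.70, against a median SD of 0.41. *Krt6b* and *Krt16* were also among the most variable in non-lesional skin, at ranks 5 and 19, whereas *Krt17* was at rank 5540 there. In WT skin *Krt16* and *Krt6b* were at ranks 55 and 65.

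The 4 genes moved alike over the 15 libraries, with Pearson's r from 0.926 to 0.969 and Spearman's rho from 0.582 to 0.796 between them. Without lesional replicates 2 and 11, a setting chosen after seeing the data, r ran from 0.537 to 0.853 and rho from 0.357 to 0.687 over 13 libraries. These correlations are a description. The genes with the most similar pattern to *Krt6b* were *S100a9*, *Sprr1b*, *Lce3e*, *Lce3f* and *Sprr2i*, with r from 0.985 to 0.988. For *Krt6a* they were *Serinc2*, *Gjb2*, *Lce3d*, *Cxcl2* and *Blmh* (r from 0.965 to 0.976). For *Krt16* they were *Klk6*, *Qsox1*, *Lce3d*, *Endou* and *Sprr1b* (r from 0.972 to 0.980), and for *Krt17* they were *Slpi*, *Qsox1*, *Endou*, *Cxcl2* and *Klk6* (r from 0.978 to 0.986). *Sprr* and *Lce* genes encode precursors of the cornified envelope, *S100a9* a subunit of calprotectin, and *Cxcl2* a chemokine that draws neutrophils. *Klk6*, for example, was at 1102 and 1795 CPM in lesional replicates 2 and 11, and at no more than 102 CPM in the other 13 libraries.

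Of 12 basal and suprabasal keratins, 6 had a log2 fold change above 0 between lesional and WT skin, none met the looser rule, and the median was -0.0011, beside 0.0065 for all genes. *Krt14*, the basal type I keratin whose promoter drives Cre in these mice, was at 3129 and 5966 CPM in lesional replicates 2 and 11 and at 648 to 1454 CPM in all others. Its log2 fold change between lesional and WT skin was 1.36 ± 0.65 (SE), with an adjusted p of 0.721 in edgeR. *Krt5*, its basal type II partner, was also highest in these libraries, at 2704 and 4349 CPM against 1506 to 2526 CPM elsewhere. *Krt1*, of the suprabasal layers, was at 300.3 and 619 CPM against 144 to 258 CPM, and *Krt79* at 545 and 792 CPM against 91.5 to 243 CPM. *Krt10*, the suprabasal type I keratin, was instead at 2953 and 1377 CPM in them, against 1050.0 to 4997 CPM elsewhere. *Krt75*, a companion layer keratin and so a neighbour of *Krt6a* in the follicle, reached 51.2 and 45.9 CPM in the 2 high lesional libraries. WT replicate 1 was higher, at 73.7 CPM, and all remaining libraries ran from 13.8 to 39.3 CPM. With *Krt75*, the list of companion and outer root sheath keratins besides the stress keratins (4 of 5 tested) had a median of -0.17.

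Hair keratins marked out WT replicate 1. Its 8 inner root sheath keratins summed to 321.5 CPM against 7.16 to 50.1 CPM in the other WT libraries, and its 15 hair shaft keratins to 245 CPM against 28.2 to 44.9 CPM. *Krt25* alone, an inner root sheath keratin, was at 123 CPM in this library. In lesional replicates 2 and 11 the inner root sheath sum was 21.7 and 9.08 CPM, within the range of the other WT libraries, so the stress keratins were high there with inner root sheath keratins far below those of WT replicate 1. WT replicate 1 was the highest WT library for all 4 stress keratins, and the part of its hair keratins in that was not tested. Without WT replicate 1 the log2 fold change between non-lesional and WT skin was 0.0097 for *Krt6a* and 0.0467 for *Krt17*, and it was 4.51 for *Krt6b* and 1.32 for *Krt16*, further from 0 than with all libraries, none with an adjusted p under 0.05 in edgeR.

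Genes of activated epidermis were high in the same libraries. Of 53 genes on this list 50 were in the table, and 46 could be tested between lesional and WT skin. All 46 had a log2 fold change above 0, 34 met the looser rule with edgeR's p against 1.96% of all genes, and none passed the adjusted threshold in edgeR. Their median log2 fold change was 5.16, beside 0.0065 for all genes. The list was written with earlier results of these samples known, and its count is not independent evidence of a direction. Their summed level was 7918 and 16189 CPM in lesional replicates 2 and 11, 897 CPM in non-lesional replicate 3 and 666 CPM in WT replicate 1, and 128 to 316 CPM in the other 11 libraries. *S100a8* was at 1279 and 2421 CPM in the 2 high lesional libraries, at 115 CPM in non-lesional replicate 3 and at 11.9 CPM or less in the others. *Sprr2d*, a precursor of the cornified envelope, was at 277 and 402 CPM in the high lesional libraries and at 9.76 CPM or less elsewhere. *Defb3*, an epithelial antimicrobial peptide, had counts only in those 2 libraries, at 2.26 and 3.53 CPM.

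Of 38 regulators and partners of the stress keratins, 37 were tested between lesional and WT skin. Here 28 were above 0, 4 met the looser rule with edgeR's p, against 1.96% of all genes, and none passed the adjusted threshold in edgeR. Their median log2 fold change was 0.24, beside 0.0065 for all genes. The 4 were *Fosl1*, a member of the AP-1 transcription factor family, and *Hbegf*, *Nrg1* and *Areg*, which encode ligands of the epidermal growth factor receptor family. *Hbegf* was at 152 and 351 CPM in lesional replicates 2 and 11 and at 8.38 to 25.8 CPM elsewhere. *Areg* was at 18.1 and 37.3 CPM in those libraries and at 4.44 CPM or less in the others. *Fosl1* was at 7.25 and 12.6 CPM there and at no more than 3.69 CPM elsewhere, and *Nrg1* was at 12.2 and 30.3 CPM against no more than 2.46 CPM. These 4 genes, named for their small p between lesional and WT skin, were highest in the libraries with the highest stress keratins. In WT replicate 1 and non-lesional replicate 3, the next highest for all 4 stress keratins, *Fosl1* was at 0 and 0.444 CPM, *Nrg1* at 0.388 and 0.444 CPM, *Areg* at 2.33 and 4.44 CPM and *Hbegf* at 20.6 and 19.1 CPM. The *Areg* value of non-lesional replicate 3 was the highest outside the 2 high lesional libraries, and WT replicate 1 was the highest WT library for *Hbegf*, while *Fosl1* and *Nrg1* were low in both.

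Of 20 proliferation genes, 17 were above 0 between lesional and WT skin and 2 met the looser rule with edgeR's p, against 1.96% of all genes, and the median was 0.45 beside 0.0065 for all genes. *Mki67*, a marker of cycling cells, was at 59.3 and 62.5 CPM in lesional replicates 2 and 11, but at 70.6 CPM in lesional replicate 5, whose stress keratins were within or below the WT range. *Cdc20* was at 26.3 and 47.9 CPM in the high lesional libraries against 5.37 to 15.3 CPM in WT.

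Markers of other tissues also differed between these libraries. The summed skeletal muscle markers were 2547 CPM in lesional replicate 11 and 10364 CPM in lesional replicate 2, against 12009 to 22958 CPM in WT, and the fibroblast markers were 16334 and 26777 CPM against 26503 to 67140 CPM, so that replicate 2 lay inside the WT range. The adipocyte markers summed to 820 CPM in lesional replicate 11 and 909.5 CPM in lesional replicate 2, both below the lowest WT library at 959 CPM. The keratinocyte markers were 12311 and 9087 CPM against 4747 to 7818 CPM. The neutrophil list summed to 5161 and 2987 CPM in lesional replicates 11 and 2 and to 217 CPM in non-lesional replicate 3, against 1.69 to 6.59 CPM in WT. Nearly all of that sum was *S100a8* and *S100a9*, which activated keratinocytes also express. Of the other 4 neutrophil markers, *Cxcr2* was at 4.98 and 5.55 CPM in lesional replicates 2 and 11, at 0 in WT and at no more than 1.02 CPM elsewhere. *Retnlg* was at 0.453 and 11.6 CPM in lesional replicates 2 and 11 and at no more than 1.64 CPM elsewhere, and *Ly6g* and *Csf3r* were at 0 in all 15 libraries. All 4 neutrophil markers that could be tested were above 0 between lesional and WT skin, and 3 met the looser rule with edgeR's p, against 1.96% of all genes. The part of these differences in tissue makeup in the stress keratin levels was not tested.

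**Figure D5:**
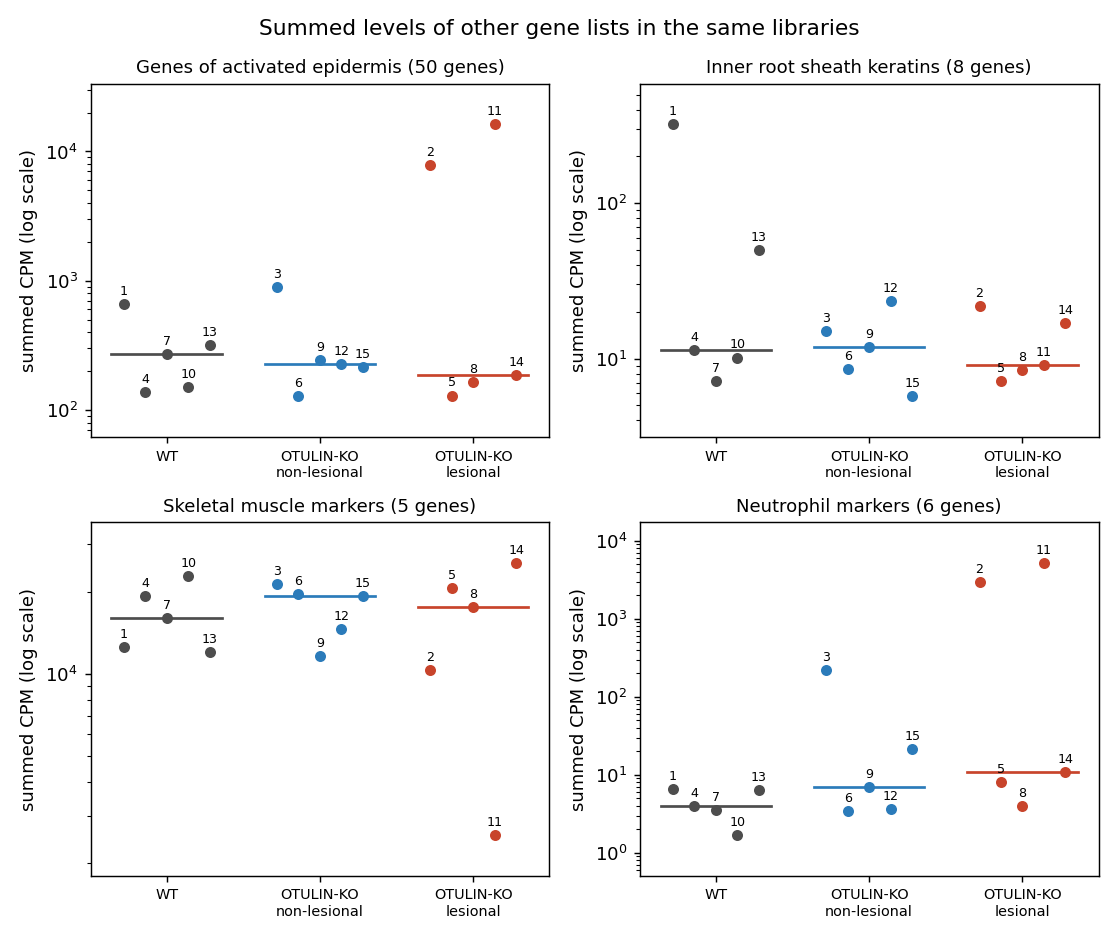
Summed CPM on a log axis of 4 gene lists in each library, with points numbered by replicate and lines at group medians. Lesional replicates 2 and 11 and non-lesional replicate 3 are the highest for activated epidermis and neutrophil genes, WT replicate 1 is highest for inner root sheath keratins, and lesional replicate 11 is lowest for muscle genes.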

How the data were processed

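The authors made QuantSeq 3′ libraries, clipped reads with cutadapt (minimum length 35), mapped them to GRCm38 together with ERCC spike-in sequences (subread-align), kept unique matches, and deposited raw counts per gene from featureCounts. A match overlapping several genes counted for each. The stated counting parameters hold no strand option, and the annotation release is not given in the sources used here. RNA integrity numbers were not analysed here, and the stated inclusion and exclusion limits on them contradict each other. The 92 spike-in rows summed to 0 and were left out, and the deposited CPM were not used. The authors compared groups with DESeq2.

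Here each comparison was fitted on its 10 libraries with edgeR 4.0.16 in R 4.3.3 (TMM, robust quasi-likelihood F-test) over every gene with at least 1 count, with Benjamini-Hochberg adjustment and a threshold of 0.05. Standard errors were obtained by dividing the size of the log2 fold change by the square root of F. log2 CPM carry a prior count of 2. Single values had two-sided exact permutation tests. DESeq2 1.42.0, limma 3.58.1, other normalizations and filters and leaving out libraries were alternatives.

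The 4 genes and all lists were chosen with earlier results of these data known. Named besides them are at most 4 genes of a list with the smallest p between lesional and WT libraries, and the 5 genes most like each by Pearson's r. *Otulin* is given as the deleted gene, and genes that overlap or resemble a stress keratin are named for their counts. Counting error depends on depth: 5 counts, the WT median of *Krt6b*, are far less precise than the 17417 counts of lesional replicate 11. Promoter and protein sequences were not used here.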

Additional observations from a re-analysis of the deposited data

Results flagged for a closer look

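In 15 groups of 5 values, Dixon's test at the 95% level marked a library that stood apart from the rest of its group 7 times. Chance marks about 1 group in 20 where values are normally spread. The test was run on CPM and percent shares without taking logs, so that rate may not hold here. The 15 groups are the 4 genes and their share in the same libraries, so they are not independent and the marks fall on 2 libraries. In WT skin it was replicate 1, for *Krt6a* (1189 CPM), *Krt6b* (17.1 CPM) and *Krt16* (91.1 CPM). In non-lesional skin it was replicate 3, for *Krt6a* (637 CPM), *Krt6b* (219.6 CPM), *Krt16* (97.6 CPM) and the stress keratin share of keratin counts (11.6%). No lesional value was marked, and in lesional skin replicates 2 and 11 were both high.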

How the results depend on the processing

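The limit of these data is 5 libraries a group, of which 2 lesional libraries carry the stress keratin levels. Between non-lesional and WT skin, the 18 genes called became 1 with DESeq2, 0 with voomWithQualityWeights, 0 with filterByExpr, 0 with at least 10 counts in every library, 0 with all 15 libraries in 1 fit and 69 without robust estimation (with 1 stress keratin, *Krt6b*), and 11 to 27 when 1 library was left out. Between lesional and WT skin, 0 became 14 with DESeq2 (with 1 stress keratin), 2 without lesional replicates 2 and 11 together, and 0 to 18 when 1 library was left out, with 18 without lesional replicate 11. By the looser rule the stress keratins higher went from 2 with edgeR's p to 4 with DESeq2's p, a setting added after seeing the data. Between lesional and non-lesional skin the genes called were 0 to 1 when 1 library was left out, with 1 without lesional replicate 11.

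Without lesional replicates 2 and 11 together, chosen after seeing the data, the log2 fold changes against WT were -0.80 (*Krt6a*), -0.85 (*Krt6b*), -1.002 (*Krt16*) and -0.25 (*Krt17*), those against non-lesional skin -0.29, -4.03, -1.08 and -0.085, and the difference in log2 share against WT -0.17.

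Between non-lesional and WT skin, leaving out 1 library gave log2 fold changes of -0.76 to 0.0097 for *Krt6a*, -0.46 to 4.51 for *Krt6b*, -1.11 to 1.32 for *Krt16* and -0.28 to 0.0467 for *Krt17*, and *Krt16* was at -0.11 with voomWithQualityWeights. The differences in mean log2 CPM ran from -0.19 to 1.56 for *Krt6b*, -0.61 to 0.57 for *Krt16* (0.0035 with library totals) and -0.25 to 0.0512 for *Krt17*. The log2 share ran from -0.41 to 0.0359, with 0.0359 without WT replicate 1. The log2 ratio ran from -0.0575 to 0.79 for *Krt16* to *Krt6a* and from -0.39 to 0.52 for *Krt16* to *Krt17*. Between lesional and WT skin the log2 ratio of *Krt6a* to *Krt17* ran from -0.13 to 0.60. The cause of these changes was not tested beyond the libraries named. Apart from fits with a block, a further 5 values passed the threshold only under an alternative: *Krt6b* with DESeq2 or without robust estimation, as given above, and, when 1 library was left out, the ratio of *Krt6b* to *Krt6a* (2 libraries) and to *Krt16* (1 library) between lesional and WT skin.

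The groups share no replicate numbers, and the labels do not say whether neighbouring numbers, such as WT 1, lesional 2 and non-lesional 3, belong together. As a hint from the data only, deviations from the group means over 14171 genes correlated within such sets by 0.121 to 0.255 between non-lesional and WT libraries (best with its own set in 5 of 5), 0.126 to 0.377 between lesional and non-lesional (3 of 5) and -0.0982 to 0.254 between lesional and WT (3 of 5). A replicate block on these 5 sets, chosen after seeing the data, was therefore fitted in 6 ways. Genes called with edgeR, edgeR without robust estimation, edgeR with filterByExpr, DESeq2, voom and voomWithQualityWeights were 72, 105, 8, 3, 9 and 5 between non-lesional and WT skin, with 1, 2, 0, 0, 1 and 1 stress keratins (*Krt6a* with edgeR, *Krt6a* and *Krt6b* without robust estimation, *Krt6b* with both voom fits). Between lesional and WT skin they were 41, 193, 0, 0, 0 and 0, with 0, 2, 0, 0, 0 and 0 stress keratins (*Krt6b* and *Krt16*). Between lesional and non-lesional skin they were 256, 256, 0, 0, 0 and 0, with 4, 4, 0, 0, 0 and 0. In the unfiltered edgeR fits with a block between lesional and non-lesional skin, the estimated prior degrees of freedom were infinite for 100% of genes, so a gene's own spread had no weight. For *Krt6b* the quasi-dispersion used was 0.438 where its own was 46.8, and those calls are not read as a paired difference. Other edgeR calls with a block also gave little weight to a gene's own spread and are likewise not read so. Between non-lesional and WT skin, *Krt6a* was called at 0.426 where its own was 2.21, with an infinite prior for 92.4% of genes. Between lesional and WT skin without robust estimation, the values were 2.24 and 36.0 for *Krt6b* and 1.82 and 26.1 for *Krt16*. With the block the log2 fold changes between lesional and WT skin stayed above 0 in the 6 fits for *Krt6a*, *Krt16* and *Krt17*. They also did in the 5 fits that tested *Krt6b*, which filterByExpr removed. They were 0.93 to 2.06 for *Krt6a*, against 2.98 without the block, and 2.78 to 8.32 for *Krt6b*, against 8.90. For *Krt16* they were 1.76 to 4.17, against 4.78, and for *Krt17* 0.94 to 1.33, against 1.75.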
